A study of Mus musculus with 6 samples.

Results

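The 46 genes described here encode the machinery that copies DNA and the factors that admit a cell to S phase. They were picked by symbol, from a list of replication and G1/S genes, out of 28822 gene identifiers; no threshold on measured values was applied, but the list was drawn up with earlier results of these data known. Each of the 46 symbols matched 1 identifier, all 46 passed the filter on low counts, and the lowest count of a member in any library was 82. The samples were 6 RNA libraries of mouse cells, 3 labelled as treated with BW723C86, an agonist of the serotonin receptor 5-HT2B, and 3 with its vehicle DMSO. The series title names BMDMs, macrophages that are cultured from bone marrow. Both groups were grown on Transwell inserts over HT22 cells, a line derived from mouse hippocampal neurons, which had spent 2 h without oxygen and glucose. Each library is labelled with both BMDM and HT22, and the design text allows BV2 microglia in place of BMDMs. The sources used here give no strain, genotype, animal age, dose or length of treatment, and do not tell if the replicates are separate cultures or animals. The p-values therefore measure the spread between these libraries, which may be technical. The comparison asks how the agonist changed macrophage transcripts.

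Replication starts when the origin recognition complex, CDC6 and CDT1 load the ring-shaped MCM helicase on DNA in G1. Cyclin E and the CDC7 kinase with its partner DBF4 then let CDC45 and GINS join the ring, and DNA polymerases follow with the sliding clamp PCNA, which the RFC complex loads. E2F transcription factors, held back by the retinoblastoma family until cyclin D kinases act, drive most of these genes. Macrophages grown from bone marrow divide in response to colony-stimulating factors, and their replication genes are commonly expressed while they do.

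Total counts ran from 58841307 to 75931615 per library. Values are given as CPM, the count's share of its library in the usual CPM unit, with library sizes scaled by edgeR's TMM factors, and fold changes as log2 of BW723C86 over DMSO with their standard error (SE). A gene passed the test at an adjusted p under 0.05 in edgeR's quasi-likelihood test with Benjamini-Hochberg adjustment over all 15567 tested genes. BW723C86 replicate 2 stood farthest from its group: over genes with at least 40 counts in the pair, its chi-square divided by the degrees of freedom was 35.5 and 24.4 against replicates 1 and 3, while the other pairs within a group gave 9.83 to 11.1. Of 10 macrophage markers, 5 were higher with BW723C86, 3 were lower and 2 did not pass. Their sum was 4550 to 4619 CPM in DMSO and 3715 to 3775 CPM with BW723C86, of which Itgam alone averaged 2088 and 976 CPM. Of 12 genes of HT22 cells and neurons, 9 were in the table, and their sum was 0.347 to 0.613 CPM in DMSO and 0.806 to 1.38 CPM with BW723C86. Map2, Nefl and Dcx of that list had no count in any library. Only Nes and Ncam1 had enough counts to be tested, and Ncam1 did not pass. Nes was called higher, at 0, 0 and 0.0514 CPM in DMSO and 0.25 to 0.507 CPM with BW723C86.

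Of the 46 members, 14 rose and 5 fell with BW723C86, and 27 did not pass. The 19 called members are 41.3% of the list, and 42.0% of all tested genes were called. By direction the background was 21.3% of tested genes higher and 20.7% lower, against 30.4% and 10.9% of the members. Among genes with at least 5 CPM, here before TMM scaling, in 3 libraries, 53.0% were called, against 19 of 42 members (45.2%). In bulk RNA, fewer cells of a type and less RNA per cell cannot be told apart. The changes were small. No member reached 1.5-fold, a size at which 15.5% of tested genes were called (13.6% of genes with at least 5 CPM). At 2-fold or more 8.45% were called (5.69% of genes with at least 5 CPM). Log2 fold changes ran from -0.47 (Pola1) to 0.55 (Fen1), with a median of 0.11 against 0.00 over all tested genes. The median absolute log2 fold change was 0.17 for the members and 0.27 for all tested genes. These medians were not matched for level: 42 of 46 members had at least 5 CPM in 3 libraries, against 10224 of 15567 tested genes. For 23 members the groups did not overlap (50.0%, against 52.3% of tested genes and 61.6% of those with at least 5 CPM). They were the 19 called members together with Cdc6, Dbf4, Clspn and Slbp. With libraries scaled to total counts alone, 8 members rose and 7 fell, and higher calls went from 73.7% to 53.3% of members called and from 50.8% to 38.5% of all genes called. The counts were 8 higher and 3 lower without DMSO replicate 1, 8 and 5 without DMSO replicate 3, and 6 and 4 without BW723C86 replicate 3.

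**Figure D1:**
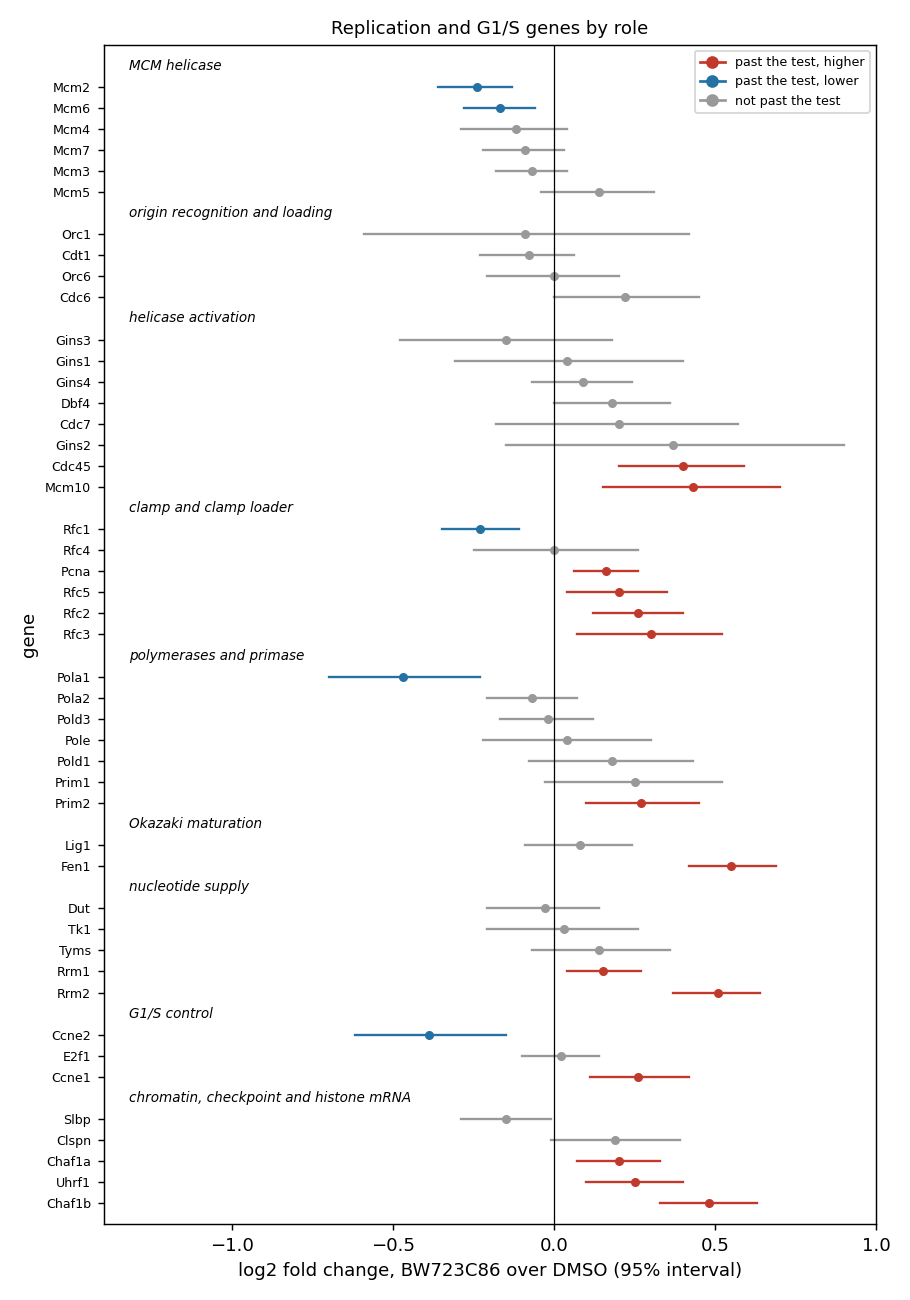
Log2 fold change of each of the 46 members, BW723C86 over DMSO (points), with its 95% interval (lines), grouped by role and coloured by the result of edgeR's test. Fen1, Rrm2 and Chaf1b lie farthest to the right and Pola1 and Ccne2 farthest to the left, and the values run from -0.47 to 0.55.

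Promoter sequence was looked at next, since E2F sites are the feature known to be shared by many of these genes. RefSeq promoter windows (build GRCm38.p6, 250 bases before to 50 after the start) were found by symbol for 38 of the 46 members. Ccne2, Gins1, Gins2, Gins4, Mcm4, Pole, Prim2 and Rfc2 had no entry. The letters searched, on both strands, were the E2F-type sites TTTCCCGC, TTTGGCGC, TTTCGCGC and TTTGCCGC, which can overlap each other, and CCAAT, the box bound by NF-Y. An E2F-type match was present in 15 of 38 members (39.5%), against 2.6% of 27025 genes with a window. Counted by window these were 34.1% of 44 member windows and 2.26% of 32851 windows. CCAAT was present in 21 of 38 members (55.3%) and 41.1% of all genes. The E2F-type matches lay in 2 of 12 members that rose (Rfc3 and Uhrf1), 2 of 4 that fell (Mcm6 and Pola1) and 11 of 22 that did not pass. CCAAT lay in 8 of 12 that rose, 4 of 4 that fell and 9 of 22 that did not pass. A match describes the letters only and shows no binding.

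The 250 bases before the start are printed for the 4 changed members with a match, for the helicase gene Mcm5 as one that did not pass, and for Chaf1b and Rrm2, which rose most among members with a single window and no match. E2F-type matches are in capitals. The windows are chr1:128359706-128359955 (minus strand, Mcm6), chr8:75109259-75109508 (plus, Mcm5), chrX:93632156-93632405 (minus, Pola1), chr5:151651209-151651458 (minus, Rfc3), chr17:56304063-56304312 (plus, 1 of 2 windows of Uhrf1), chr16:93883651-93883900 (plus, Chaf1b) and chr12:24708004-24708253 (plus, Rrm2).
Mcm6: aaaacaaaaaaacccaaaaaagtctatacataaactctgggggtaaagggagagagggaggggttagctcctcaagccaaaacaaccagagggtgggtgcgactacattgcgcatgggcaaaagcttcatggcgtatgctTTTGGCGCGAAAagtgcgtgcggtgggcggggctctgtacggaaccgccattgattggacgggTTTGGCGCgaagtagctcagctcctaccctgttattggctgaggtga
Mcm5: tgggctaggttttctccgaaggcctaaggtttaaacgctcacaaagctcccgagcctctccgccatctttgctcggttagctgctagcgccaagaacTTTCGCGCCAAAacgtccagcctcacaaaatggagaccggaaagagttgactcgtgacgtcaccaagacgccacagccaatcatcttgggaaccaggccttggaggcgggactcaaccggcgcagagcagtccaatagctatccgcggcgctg
Pola1: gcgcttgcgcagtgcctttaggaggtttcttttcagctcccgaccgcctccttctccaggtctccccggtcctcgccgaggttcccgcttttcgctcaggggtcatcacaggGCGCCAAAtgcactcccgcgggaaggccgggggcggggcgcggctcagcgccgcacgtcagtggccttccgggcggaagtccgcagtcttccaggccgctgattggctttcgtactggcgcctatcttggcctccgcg
Rfc3: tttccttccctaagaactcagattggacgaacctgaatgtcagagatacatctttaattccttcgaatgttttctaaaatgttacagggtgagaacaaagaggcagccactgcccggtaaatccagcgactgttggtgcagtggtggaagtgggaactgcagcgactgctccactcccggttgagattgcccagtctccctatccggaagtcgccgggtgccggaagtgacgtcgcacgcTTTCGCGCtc
Uhrf1: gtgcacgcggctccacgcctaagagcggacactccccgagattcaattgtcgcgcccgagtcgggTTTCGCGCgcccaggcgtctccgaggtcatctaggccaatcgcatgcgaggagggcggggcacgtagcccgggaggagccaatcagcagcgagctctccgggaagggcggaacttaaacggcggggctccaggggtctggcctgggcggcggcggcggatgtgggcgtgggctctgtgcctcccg
Chaf1b: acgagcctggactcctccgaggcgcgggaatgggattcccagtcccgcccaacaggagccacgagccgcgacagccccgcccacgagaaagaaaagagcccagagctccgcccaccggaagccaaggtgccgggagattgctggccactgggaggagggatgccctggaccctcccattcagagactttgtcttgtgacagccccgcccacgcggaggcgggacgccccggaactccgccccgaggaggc
Rrm2: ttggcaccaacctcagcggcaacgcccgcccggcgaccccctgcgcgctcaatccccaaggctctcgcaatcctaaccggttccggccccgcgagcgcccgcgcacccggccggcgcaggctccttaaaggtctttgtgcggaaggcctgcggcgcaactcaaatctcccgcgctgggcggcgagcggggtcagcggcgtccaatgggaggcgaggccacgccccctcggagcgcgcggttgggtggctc
In Mcm6 a pair of overlapping matches on opposite strands covers positions -110 to -99 from the start and another match covers -47 to -40. Mcm5 has an overlapping pair at -153 to -142. The matches of Pola1, Rfc3 and Uhrf1 lie at -138 to -131, -10 to -3 and -185 to -178, and Rfc3 has another at 1 to 8, beyond the printed bases. Mcm6 and Mcm5 thus share the overlapping arrangement, and the first fell while the second did not pass.

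Among the 6 subunits of the MCM helicase, 2 fell and 4 did not pass. Mcm2 (ENSMUSG00000002870) was at 51.9, 52.6 and 52.8 CPM in DMSO and 43.2, 44.4 and 45.2 CPM with BW723C86 (log2 fold change -0.24, SE 0.05, adjusted p = 0.0019). Mcm6 (ENSMUSG00000026355) was at 72.3, 73.8 and 70.0 CPM in DMSO and 63.9, 65.2 and 63.0 CPM with BW723C86 (log2 fold change -0.17, SE 0.05, adjusted p = 0.013). Every treated library lay below every DMSO library for both genes. Mcm6 missed the threshold without DMSO replicate 1 and without DMSO replicate 2. Mcm3 stood at 73.4 ± 1.32 and 70.0 ± 2.83 CPM (mean ± SD, n = 3 per group, DMSO first here and below), Mcm4 at 36.5 ± 2.93 and 33.4 ± 2.72 CPM and Mcm7 at 55.4 ± 3.57 and 52.0 ± 0.968 CPM. These groups overlapped. Mcm5 was the only subunit with a positive estimate (0.14, 95% interval -0.04 to 0.31), with 57.4, 44.6 and 53.6 CPM in the treated libraries, of which replicate 2 was lowest, against 45.4 to 48.8 CPM in DMSO. Without BW723C86 replicate 2, Mcm5 passed as higher and Mcm3 as lower. With total count scaling Mcm7 passed as lower. Summed over the 6 subunits, the level was 333 to 345 CPM in DMSO and 313 to 319 CPM with BW723C86. Per kb of exon the DMSO means ran from 7.54 CPM for Mcm2 to 19.6 CPM for Mcm3. The order Mcm3, Mcm6, Mcm7, Mcm5, Mcm4, Mcm2 became Mcm3, Mcm6, Mcm5, Mcm7, Mcm4, Mcm2 with BW723C86. Exon length here takes in every annotated exon of a gene, 6956 bases for Mcm2 and 3589 for Mcm4, so the order depends on the annotation. Without division by length, Mcm2 (52.4 CPM in DMSO) stood above Mcm4 (36.5) and Mcm5 (47.1). The ranges of Mcm5 and Mcm7 overlapped in DMSO and also with BW723C86, where Mcm7 stayed above Mcm5 in replicate 2.

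**Figure D2:**
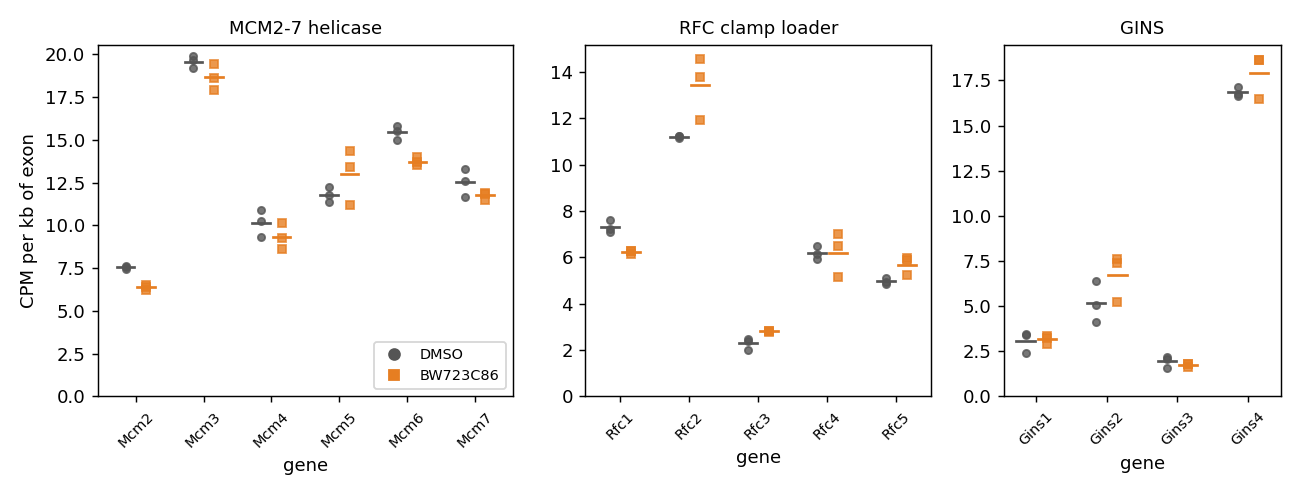
Level per kb of exon (CPM per kb, y axis, from 0) of the subunits of the MCM helicase, the RFC clamp loader and GINS in each library, with short bars for group means. DMSO libraries are grey circles and BW723C86 libraries orange squares, and Mcm2, Mcm6 and Rfc1 are lower and Rfc2, Rfc3 and Rfc5 higher in all 3 treated libraries; with total count scaling the groups of Rfc5 overlap.

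Genes of origin recognition and helicase loading did not pass the test. Orc6 was at 11.6, 11.3 and 10.1 CPM in DMSO and 11.5, 10.6 and 10.9 CPM with BW723C86. Orc1, the lowest member, was at 2.2 ± 0.257 and 2.06 ± 0.574 CPM, with a 95% interval of -0.59 to 0.42 for its log2 fold change. Cdt1, encoding the loading factor that geminin inhibits, was at 33.1 ± 0.743 and 31.2 ± 2.19 CPM. Cdc6, encoding the ATPase that works with it, was at 8.81, 8.84 and 7.49 CPM in DMSO and 9.57, 9.61 and 10.2 CPM with BW723C86, without overlap, and missed the threshold (log2 fold change 0.22, SE 0.1, adjusted p = 0.1).

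Helicase activation genes included 2 that rose and 6 that did not pass. Mcm10 (ENSMUSG00000026669), encoding a factor that helps activate the loaded helicase, was at 5.88, 6.12 and 7.43 CPM in DMSO and 8.02, 8.52 and 9.58 CPM with BW723C86 (log2 fold change 0.43, SE 0.13, adjusted p = 0.015). Cdc45 (ENSMUSG00000000028), encoding the helicase cofactor, was at 12.2, 11.1 and 13.1 CPM against 15.0, 17.1 and 15.7 CPM (log2 fold change 0.40, SE 0.09, adjusted p = 0.0036). The treated libraries were higher throughout. Mcm10 missed the threshold without DMSO replicate 1, without DMSO replicate 2 and without BW723C86 replicate 3. The kinase genes Cdc7 and Dbf4 were at 3.57 ± 0.605 and 4.09 ± 0.526 CPM and at 14.9 ± 0.872 and 16.9 ± 1.12 CPM. Of the GINS genes, Gins1 (4.64 ± 0.901 and 4.79 ± 0.37 CPM), Gins3 (5.23 ± 0.903 and 4.71 ± 0.236 CPM) and Gins4 (22.7 ± 0.373 and 24.1 ± 1.7 CPM) overlapped between groups. Gins2 was the most variable member in DMSO, at 16.9, 26.2 and 20.8 CPM against 31.1, 21.3 and 30.4 CPM, and its interval reached 0.90. It passed without DMSO replicate 2.

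The clamp and its loader held the largest number of called members for a role, 4 higher and 1 lower of 6. Pcna (ENSMUSG00000027342), the sliding clamp and the highest member per kb of exon, was at 143, 137 and 139 CPM in DMSO and 150, 161 and 158 CPM with BW723C86 (log2 fold change 0.16, SE 0.05, adjusted p = 0.012). Rfc1 (ENSMUSG00000029191), the large subunit of the loader, fell from 45.8, 42.8 and 43.5 CPM to 37.8, 37.7 and 36.9 CPM (log2 fold change -0.23, SE 0.06, adjusted p = 0.0043). The small subunits went the other way or did not pass. Rfc2 (ENSMUSG00000023104) was at 70.3, 70.8 and 70.7 CPM in DMSO and 91.7, 75.1 and 86.9 CPM with BW723C86 (log2 fold change 0.26, SE 0.07, adjusted p = 0.0064), with replicate 2 again lowest of the treated. Rfc3 (ENSMUSG00000033970) was at 7.27, 8.89 and 8.61 CPM against 10.2, 9.95 and 10.2 CPM (log2 fold change 0.30, SE 0.11, adjusted p = 0.039). Rfc5 (ENSMUSG00000029363) was at 22.9, 23.9 and 22.6 CPM against 27.4, 24.4 and 27.8 CPM (log2 fold change 0.20, SE 0.07, adjusted p = 0.043). Rfc4 stood at 9.48 ± 0.427 and 9.5 ± 1.47 CPM (interval -0.25 to 0.26). Rfc3 missed the threshold when any library except DMSO replicate 2 was left out, and Rfc5 when any except BW723C86 replicate 2 was. Pcna missed it without DMSO replicate 2, DMSO replicate 3 or BW723C86 replicate 3, and all 3 missed it with total count scaling.

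Polymerase and primase genes split as well. Pola1 (ENSMUSG00000006678), the catalytic subunit of polymerase alpha, which starts each strand, was at 12.5, 13.8 and 12.8 CPM in DMSO and 10.9, 8.84 and 8.49 CPM with BW723C86 (log2 fold change -0.47, SE 0.11, adjusted p = 0.0039). This was the lowest fold change of any member. Prim2 (ENSMUSG00000026134), the large primase subunit of the same complex, was at 14.4, 13.6 and 14.6 CPM against 16.2, 17.2 and 17.9 CPM (log2 fold change 0.27, SE 0.08, adjusted p = 0.014). It missed the threshold without DMSO replicate 2, without BW723C86 replicate 3 and with total count scaling. The other subunits of that complex, Pola2 (26.1 ± 0.658 and 24.8 ± 0.889 CPM) and the catalytic primase Prim1 (7.54 ± 0.688 and 8.95 ± 1.36 CPM), did not pass. Nor did the leading-strand polymerase gene Pole (8.87 ± 0.696 and 9.1 ± 1.25 CPM), or Pold3 (26.7 ± 0.834 and 26.3 ± 1.49 CPM) of polymerase delta. Pold1, its catalytic subunit, was at 27.8, 26.2 and 25.1 CPM in DMSO and at 36.6, 26.3 and 26.5 CPM with BW723C86, so that treated replicate 1 alone was high.

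Fen1 (ENSMUSG00000024742), the flap nuclease that trims Okazaki fragments, rose most of all members. It was at 39.4, 41.9 and 42.1 CPM in DMSO and 65.3, 56.8 and 58.8 CPM with BW723C86 (log2 fold change 0.55, SE 0.06, adjusted p = 1.3e-05). Lig1, encoding the ligase that seals those fragments after it, was at 22.7 ± 1.58 and 23.9 ± 1.26 CPM, with an interval of -0.09 to 0.24. The interval of Fen1, 0.42 to 0.69, lay above that of Lig1; the difference itself was not tested.

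Among 5 genes of nucleotide supply, 2 rose and 3 did not pass. Rrm2 (ENSMUSG00000020649), the regulated subunit of ribonucleotide reductase, was at 31.3, 33.8 and 32.1 CPM in DMSO and 45.99, 48.1 and 43.8 CPM with BW723C86 (log2 fold change 0.51, SE 0.06, adjusted p = 2e-05). Rrm1 (ENSMUSG00000030978), its large subunit, was at 63.7, 64.1 and 64.4 CPM against 68.7, 75.6 and 69.2 CPM (log2 fold change 0.15, SE 0.05, adjusted p = 0.036). Both rose, and the interval of Rrm2 (0.37 to 0.64) lay above that of Rrm1 (0.04 to 0.27), a difference that was not tested. Rrm1 missed the threshold when any library except BW723C86 replicate 1 was left out, and with total count scaling. The thymidylate genes Tyms (9.84 ± 0.93 and 10.9 ± 0.513 CPM) and Tk1 (17.7 ± 2.05 and 18.0 ± 2.24 CPM) did not pass, and neither did the dUTPase gene Dut (13.7 ± 0.343 and 13.4 ± 0.416 CPM).

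The pair of E-type cyclins, which activate CDK2 at the G1/S boundary, moved in opposite directions. Ccne1 (ENSMUSG00000002068) was at 24.2, 26.7 and 24.4 CPM in DMSO and 30.4, 27.97 and 32.0 CPM with BW723C86 (log2 fold change 0.26, SE 0.07, adjusted p = 0.0099). Ccne2 (ENSMUSG00000028212) was at 12.8, 10.6 and 12.2 CPM against 9.02, 9.87 and 8.24 CPM (log2 fold change -0.39, SE 0.11, adjusted p = 0.011). Neither gene's groups overlapped. Both missed the threshold without DMSO replicate 1 and without BW723C86 replicate 3, and Ccne1 also without DMSO replicate 3. E2f1, encoding the activating E2F factor, was at 47.4, 49.2 and 44.8 CPM in DMSO and 48.0, 46.9 and 48.5 CPM with BW723C86, and its interval ran from -0.10 to 0.14.

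Of the 5 chromatin, checkpoint and histone mRNA genes, 3 rose. Chaf1b (ENSMUSG00000022945), the middle subunit of chromatin assembly factor 1, was at 20.2, 19.4 and 19.6 CPM in DMSO and 27.9, 25.8 and 29.0 CPM with BW723C86 (log2 fold change 0.48, SE 0.07, adjusted p = 9.6e-05). Chaf1a (ENSMUSG00000002835), its large subunit, was at 30.3, 30.9 and 29.7 CPM against 35.6, 33.2 and 35.8 CPM (log2 fold change 0.20, SE 0.06, adjusted p = 0.016). Uhrf1 (ENSMUSG00000001228), which brings the maintenance methyltransferase to newly copied DNA, was at 26.7, 26.2 and 27.0 CPM against 34.1, 29.1 and 32.0 CPM (log2 fold change 0.25, SE 0.07, adjusted p = 0.011). In each of the 3 genes, treated replicate 2 was the lowest treated library and still lay above DMSO. Chaf1a missed the threshold without DMSO replicate 1, DMSO replicate 3 or BW723C86 replicate 3 and with total count scaling. The checkpoint adaptor gene Clspn was at 11.3 ± 0.715 and 12.9 ± 0.797 CPM. Slbp, which binds the ends of histone mRNAs, was at 40.3 ± 0.815 and 36.4 ± 2.89 CPM. Neither of these passed, though their groups did not overlap, and Slbp passed as lower without BW723C86 replicate 2 and with total count scaling.

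**Figure D3:**
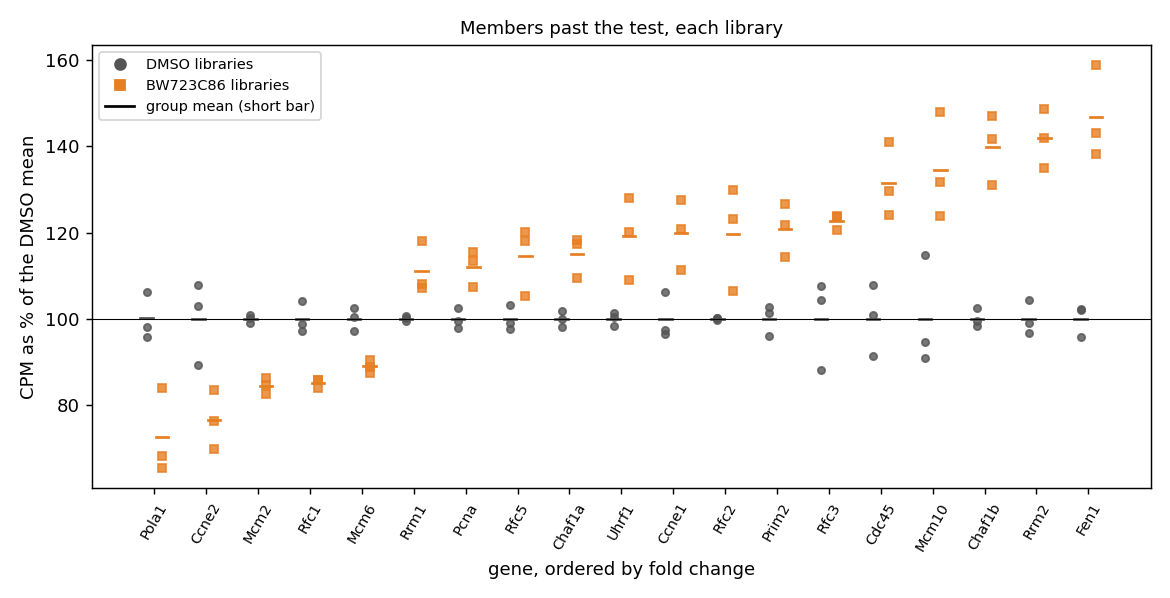
Level of the 19 members that passed the test in each library, as a percent of that gene's DMSO mean (y axis, not starting at 0), ordered by fold change, with short bars for group means. The treated libraries (orange squares) lie apart from the DMSO libraries (grey circles) for all 19 genes on this TMM scale, and for 16 of them with total count scaling.

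Summed by role, the libraries separated in different directions. The MCM helicase sum was lower in every treated library. Sums were higher in every treated library for helicase activation (89.2 to 92.1 CPM in DMSO and 104 to 112 CPM with BW723C86), for the clamp and its loader (293 to 300 and 318 to 331 CPM) and for Okazaki maturation (61.3 to 66.4 and 82.1 to 88.5 CPM). The same held for nucleotide supply (135 to 140 and 157 to 163 CPM) and for the chromatin, checkpoint and histone mRNA genes (126 to 129 and 139 to 148 CPM). A higher sum did not mean that every gene of the role rose. In helicase activation 2 of 8 genes passed, and Gins2, whose groups overlapped, had means of 21.3 and 27.6 CPM. In Okazaki maturation Fen1 had means of 41.1 and 60.3 CPM, and Lig1 did not pass. Groups overlapped for origin recognition and loading, for polymerases and primase and for the 3 G1/S control genes. All 46 members together summed to 1305 to 1325 CPM in DMSO and 1380 to 1417 CPM with BW723C86. With libraries scaled to total counts alone, a setting added for these sums after the data were seen, the groups overlapped for all 46 together (1342 to 1356 and 1354 to 1372 CPM). In that setting origin recognition and loading did not overlap (55.5 to 56.5 and 51.9 to 53.8 CPM), the other roles kept their separation or overlap, and 3 called members, Pcna, Rfc5 and Rrm1, overlapped.

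**Figure D4:**
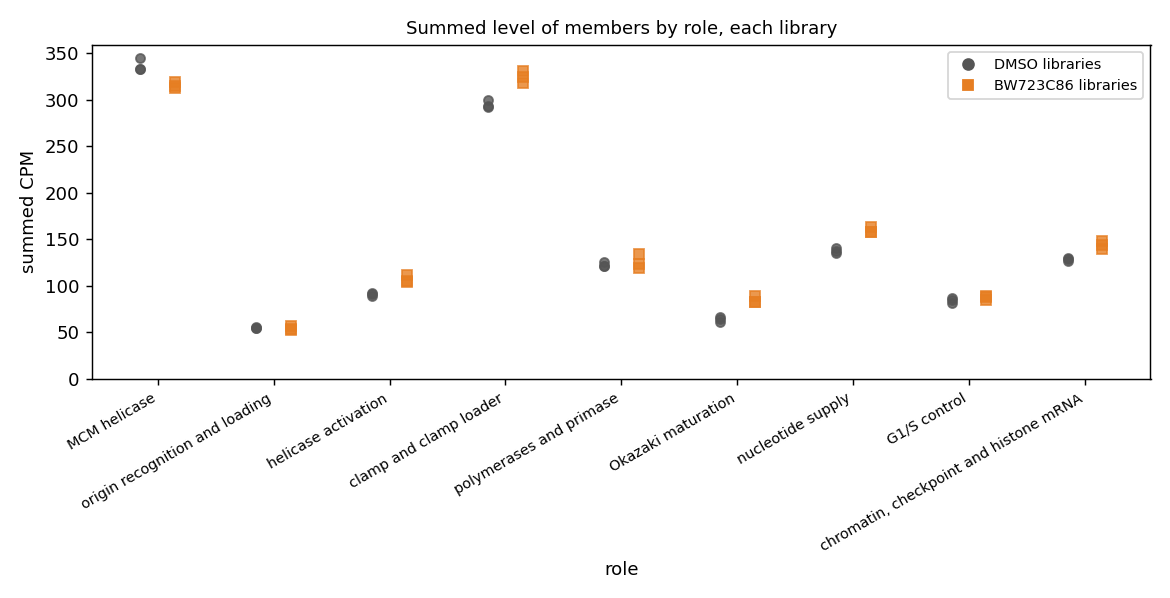
Summed CPM of the members of each role (y axis, from 0) in each library, DMSO as grey circles and BW723C86 as orange squares. The helicase sum is lower in the treated libraries (313 to 319 against 333 to 345 CPM) and the clamp and nucleotide sums are higher.

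Precision differed between members. The median coefficient of variation among libraries was 4.88% in DMSO and 6.59% with BW723C86, and 29 of 46 members varied more in the treated group. That count was not taken over all tested genes, so it is not shown to be particular to the members. For 25 of the 27 members that did not pass, the 95% interval of the log2 fold change stayed within 0.58 of 0, which is 1.5-fold. The exceptions were Orc1 and Gins2. A missed threshold does not show that a gene was unchanged.

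Some members share exons with a neighbouring gene on the opposite strand in GENCODE M21, and the sources used here do not say if counting used strand. This held for 12 members with a protein-coding neighbour. Chaf1a shares 4648 bases with Ubxn6, which rose by a log2 fold change of 0.28 (adjusted p = 0.0086), and Rfc2 shares 952 bases with Lat2, which rose by 0.29 (adjusted p = 0.0013). Rfc5 shares 499 bases with Wsb2, which averaged 139 CPM in DMSO and 253 CPM with BW723C86 (a log2 fold change of 0.87, adjusted p = 1.6e-08). Fen1 shares 130 bases with Tmem258, which rose by 0.34, and 1909 with the antisense gene Gm10143, which was at 1.08 and 1.56 CPM. Cdc45 shares 209 bases with Ufd1, which rose by 0.19, and Ccne2 shares 609 bases with Ints8, which did not pass (log2 fold change -0.20, adjusted p = 0.075). Of members that did not pass, Orc6 shares 171 bases with Vps35 (226 and 179 CPM, called lower). Rfc4 shares 194 with Eif4a2 (95.6 and 104 CPM, called higher), and Gins2 2758 with Gse1 (35.4 and 33.5 CPM, not past the test). The part of these neighbours in the members' values was not tested. The other called members, Rrm2, Chaf1b, Mcm2, Mcm6, Mcm10, Rfc1, Rfc3, Pcna, Pola1, Prim2, Rrm1, Uhrf1 and Ccne1, have no exonic overlap in that annotation. Pcna and Tyms have named pseudogenes that could share reads.

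Other genes of replication and the cell cycle were taken from lists written by function. Of the 113 tested, 47.8% were called, against 42.0% of all tested genes. By list this was 25% for origin recognition and licensing and 39.3% for origin firing, fork and checkpoint. It was 41.7% for nucleotide supply and for G1 cyclins, kinases and phosphatases, and 40% for E2F, DP and pocket proteins. Chromatin assembly genes gave 72.7%, CDK inhibitors 71.4% and mitotic genes 60%. Of 8 further origin recognition and licensing genes, 2 fell, Orc4 (22.6 ± 0.807 to 17.1 ± 1.94 CPM) and Orc3 (29.2 ± 1.59 to 24.9 ± 2.63 CPM). The groups of Orc3 overlapped, and its call was lost without DMSO replicate 1 or 3 or BW723C86 replicate 1 or 3. None rose, and Gmnn, encoding the CDT1 inhibitor geminin, was among the other 6. Of 28 genes for origin firing, the fork and its checkpoint, 9 fell and 2 rose. The topoisomerase gene Top1 fell from 78.9 ± 1.82 to 53.3 ± 2.72 CPM, and Top2a fell from 77.9 ± 0.938 to 66.6 ± 2.11 CPM. Pold4, the small subunit of polymerase delta, fell from 69.5 ± 3.51 to 54.0 ± 4.75 CPM and Tipin, of the fork protection complex, from 14.5 ± 0.741 to 10.5 ± 0.873 CPM. Rnaseh2b and Chtf18 were the 2 that rose (log2 fold changes 0.33 and 0.39). Chtf18 missed the threshold with total count scaling and without any library except BW723C86 replicate 2, and Rnaseh2b missed it without DMSO replicate 2 or BW723C86 replicate 2.

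Nucleotide enzymes outside the members gave 3 higher (Dck, Cad and Umps) and 2 lower (Ctps and Dctpp1) of 12. The lower count was unstable, at 4 with DESeq2, 6 with total count scaling, 5 without BW723C86 replicate 1, and 1 without DMSO replicate 1, DMSO replicate 2 or BW723C86 replicate 3. The groups of Dctpp1 overlapped. The salvage kinase gene Dck rose from 67.2 ± 1.78 to 85.2 ± 5.04 CPM. Of 11 genes for chromatin assembly and maintenance methylation, 7 fell and 1 rose. Cdca7 and Hells, which encode partners in a chromatin remodelling complex, both fell, Cdca7 from 11.2 ± 0.352 to 4.39 ± 0.96 CPM and Hells from 12.7 ± 0.43 to 7.58 ± 1.16 CPM. The histone chaperone genes Nasp and Ssrp1 also fell (log2 fold changes -0.32 and -0.24), while Asf1b, encoding a chaperone that hands histones to chromatin assembly factor 1, rose from 25.9 ± 1.07 to 31.6 ± 1.48 CPM.

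Of the cyclin D genes, which act upstream of the members, Ccnd2 and Ccnd3 fell. Ccnd2 was at 175, 180 and 185 CPM in DMSO and 57.0, 60.2 and 58.9 CPM with BW723C86 (log2 fold change -1.62, SE 0.05, adjusted p = 2.4e-11). Ccnd3 fell from 316 ± 9.27 to 219 ± 20.2 CPM, and their kinase gene Cdk6 from 69.5 ± 1.55 to 57.3 ± 0.923 CPM. Ccnd1, at 58.8 to 62.8 CPM in DMSO and 55.9 to 59.5 CPM with BW723C86, did not pass. Of the 12 genes for G1 cyclins, kinases and phosphatases 3 fell and 2 rose, the latter being Fbxw7, whose product marks cyclin E for destruction (14.1 ± 0.55 to 19.1 ± 1.71 CPM), and Ccna2 (26.8 ± 1.06 to 31.6 ± 1.79 CPM). Ccna2 missed the threshold with total count scaling and without DMSO replicate 2.

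CDK inhibitor genes went both ways, 3 lower and 2 higher of 7. Cdkn1a, encoding p21, fell from 487 ± 5.09 to 372 ± 29.8 CPM, Cdkn1b, encoding p27, from 41.2 ± 1.24 to 31.2 ± 1.78 CPM and Cdkn2d from 29.8 ± 1.32 to 20.7 ± 0.646 CPM. Cdkn1c, encoding p57, rose from 0.598 ± 0.16 to 4.14 ± 0.456 CPM (adjusted p = 6.4e-07, with a log2 fold change of 2.80 and an SE of 0.23), and Cdkn2c, encoding p18, rose from 8.72 ± 0.928 to 12.8 ± 0.24 CPM. Among 15 tested E2F, DP and pocket protein genes 3 rose and 3 fell. The repressor genes E2f6 and E2f8 rose, E2f6 from 19.4 ± 1.61 to 25.9 ± 1.15 CPM and E2f8 from 15.0 ± 1.47 to 22.2 ± 3.09 CPM, and Tfdp2 rose by 0.30. Rb1, the retinoblastoma gene, fell from 47.7 ± 1.96 to 40.6 ± 3.16 CPM, with Rbl1 (log2 fold change -0.31) and Tfdp1 (-0.18). Rb1 and Tfdp1 were lost without DMSO replicate 1 and without BW723C86 replicate 3, and 5 genes of this list were lower with total count scaling or without BW723C86 replicate 2. Tfdp2 was lost with total count scaling and without DMSO replicate 2 or 3 or BW723C86 replicate 1 or 2.

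Mitotic genes gave 10 higher and 2 lower of 20. Cenpa, Cdc20, Birc5 and Ccnb1 rose by log2 fold changes of 0.64, 0.58, 0.44 and 0.56, and Kif23 and Mki67 fell, the latter from 92.6 ± 4.54 to 59.3 ± 1.74 CPM. Kif23 missed the threshold without any library except BW723C86 replicate 2. With total count scaling the counts of mitotic genes were 8 higher and 3 lower. They were 8 and 1 without DMSO replicate 1 or 2 or BW723C86 replicate 1 or 3. The median log2 fold change was 0.22 for these 20, 0.11 for the 46 members and 0.00 for all tested genes.

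**Figure D5:**
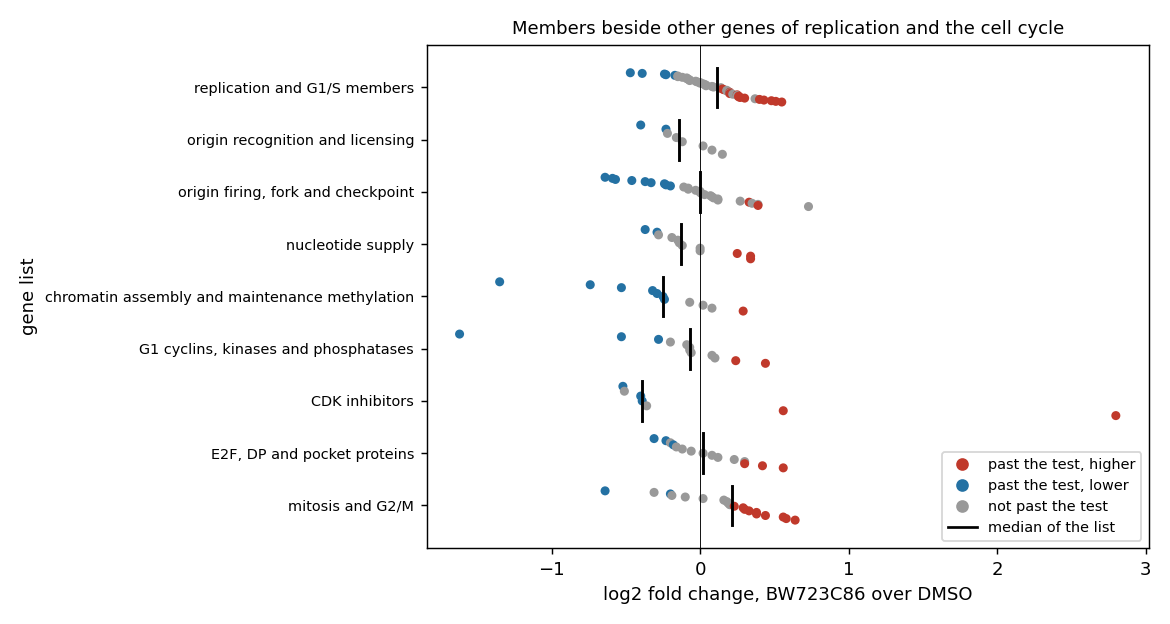
Log2 fold change, BW723C86 over DMSO, of each tested gene (points, coloured by the result of edgeR's test) in the 46 members and in the lists of related genes, with a black bar at each median. Members lie within -0.47 to 0.55, while Ccnd2 (-1.62), Cdca7 (-1.35) and Cdkn1c (2.80) lie outside.

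Markers of other cells also differed in the same libraries. Over all tested genes 21.3% were called higher and 20.7% lower. The 9 myeloid progenitor markers summed to 36.4 to 41.3 CPM in DMSO and 21.2 to 22.3 CPM with BW723C86, with 6 of 8 tested lower and none higher. Neutrophil markers summed to 2580 to 2657 CPM in DMSO and 702 to 807 CPM with BW723C86 (7 of 7 tested lower), and monocyte markers to 3289 to 3328 and 712 to 726 CPM (6 of 6 lower). Mmp8 alone averaged 2417 and 716 CPM of the neutrophil sum, and Fn1 alone 2170 and 243 CPM of the monocyte sum. Dendritic cell markers went from 507 to 518 CPM to 2340 to 2492 CPM, mainly Itgax, with 4 of 6 tested higher. Mast cell and basophil markers summed to 112 to 118 and 30.1 to 31.0 CPM, with 4 of 5 tested lower. Lymphocyte markers were at 5.6 to 6.96 and 1.57 to 1.81 CPM (3 of 3 tested lower), and stromal markers at 1.97 to 2.16 and 1.08 to 2.28 CPM, where neither of the 2 tested passed. The part of these markers' cells in the members' values was not tested.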

How the data were processed

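The authors deposited a table of estimated counts by gene, with 1 column for each of the 6 libraries. The submitters' processing notes name fastp, HISAT2, StringTie and edgeR and the builds GRCm39 and GRCh38, with no version, role or order, and per the labels' protocols the libraries were poly(A)-selected and strand-marked with dUTP. Low values pile up at 4 (4 occurs 4613 times, 3 occurs 2904 and 5 occurs 2552), so an alternative divided the counts by 4. Symbols for 27005 of 28822 identifiers came from a reference table of gene names, and exon lengths and overlaps from GENCODE M21, which describes GRCm38, so no coordinates of measured genes are given. Promoter sequences and their positions are RefSeq's on GRCm38.p6.

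The test was edgeR 4.0.16 (R 4.3.3, TMM, robust quasi-likelihood fit, filter by expression per group) on all genes, two-sided. It was also run on simulated counts in which few genes changed, equally up and down, with no scaling difference between groups. That run cannot show which scaling suits the data here. Alternatives were other scalings, filters, DESeq2 1.42.0, limma-voom (limma 3.58.1), a fit without robust weights, a block for replicate number, leaving out each library and a test against a fold change of 1.2. Intervals are the log2 fold change plus and minus the t quantile times its SE. A count of 3, taken as the floor, is 0.0385 to 0.0523 CPM on the TMM scale, for counting error only. Pairs of libraries within a group differed by more than counting noise (chi-square per degree of freedom 2.46 to 8.88 with counts divided by 4). The values were highest in the pairs with BW723C86 replicate 2, at 8.88 and 6.09. All 6 libraries were kept. The members, lists and printed promoters were chosen with earlier results of these data known. Named were all 46 members and, of each related list, up to 4 genes of smallest p past the threshold in each direction. Ccnd1 and Gmnn were named beside them after their values were seen, as were Nes, Ncam1, Itgax, Itgam, Mmp8 and Fn1.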

Additional observations from a re-analysis of the deposited data

How the results depend on the processing

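The 19 called members kept their direction under all 17 alternatives, which reuse the same libraries. The groups of these members did not overlap on the TMM scale. A fit without 1 library could therefore hardly reverse a direction, and the test against a fold change of 1.2 keeps the same estimate. Fen1, Rrm2 and Chaf1b passed under each of the 17, 6 others were lost only in the test against a fold change of 1.2, and 5 uncalled members passed under at least 1 alternative. Sign changed under some alternative for 9 members, none of them past the threshold, among them Pold1 (0.18 as reported, -0.00 to 0.24) and Orc1 (-0.09, -0.27 to 0.11). Members called higher, 14 as reported, numbered 8 with total count scaling, where the members' median log2 fold change was 0.04 in place of 0.11, and 3 in the test against a fold change of 1.2, where 0 were lower and 1609 genes in all were higher and 1599 lower. Leaving out a library each time gave 6 to 13 members higher and 3 to 7 lower, fits with fewer samples. DESeq2 and limma-voom called 14 and 13 members higher and 5 lower. With the replicate block 11 members were higher and 5 lower, Rfc3, Rfc5 and Rrm1 being lost, as were Orc3, Chtf18 and Kif23 of the related lists; same-numbered libraries deviated with correlations of 0.031, -0.025 and -0.005, and 1 of 3 DMSO libraries correlated best with the treated library of its own number. With counts divided by 4 the counts were 14 and 5. Orc1 had the lowest counts of the members (82 in 1 library). The cause of these shifts was not tested.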
